A study of Homo sapiens with 2 samples.

Results

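The cytosolic ribosomal protein genes encode the protein components of the large and the small subunit of the ribosome outside mitochondria. Members were the gene rows named RPL or RPS followed by a digit, with RPLP0, RPLP1, RPLP2 and RPSA, and without the RPS6K kinases, antisense names, names with a dot and names ending in P and a number. They numbered 88 of 36601 genes, 53 of the large and 35 of the small subunit. Over the cells described below, 83 members had 1133 UMIs (counted molecules) or more, 3 had 1 to 29 and 2 had 0.

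The cells came from tumours of OVCAR5, an established ovarian carcinoma cell line that carried an interferon gamma (IFNg; IFNy in the labels) sensing reporter and was sorted for the fluorescent protein CFP, grown in NSG-B2m-/- mice, an immunodeficient strain. Per the labels, IFNg and tumour necrosis factor alpha (TNFa) were injected into the tumours. TNFa was always used at 10 ng/ml and IFNg at 100 ng/ml. At 6 h, 3 tumours had TNFa, 2 had both cytokines and 2 were unexposed; at 24 h, 2 had IFNg and 2 were unexposed; and at 48 h, 1 had IFNg and 1 was unexposed. All 13 tumours were tagged with hashtag antibodies and pooled into 1 single-cell library; the treatment fields of the 2 libraries each name a single condition, which is at odds with that description. Cells carried a pair of hashtags, and no source used here says which pair marked which tumour. Cells are therefore described by pair (HTO2+HTO5 and so on), with no comparison of treatments and no test.

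A pair was the 2 highest of HTO2 to HTO9, the second with 20 counts or more and at least 4 times the third. Of 9083 barcodes, 3611 had at least 500 genes and no more than 20% of UMIs from mitochondrial genes, and 2994 of these fell into 13 pairs of 110 to 507 cells, called populations here. They held 765923 to 5058403 gene UMIs each, with population medians of 6434.5 to 9450 UMIs per cell. At least 3 of 10 epithelial markers were detected in 95.02% of cells. Marker lists of endothelial cells, T cells and red cells reached 3 in 0% of cells, and those of fibroblasts and macrophages in 0.0668% and 0.668%. The counts are of human genes, so these lists do not measure cells of the mouse host. Whether host cells were among the barcodes was not tested. Each interval is an exact 95% interval for counting error alone. Intervals for the highest and lowest of the 13 populations, and for their ratio, take those populations as fixed. They do not cover the picking of extremes, so an interval of such a ratio can lie above 1 through counting noise alone. Several conditions had 2 or 3 tumours, but since pairs are not mapped to tumours the spread between replicates could not be computed.

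Ribosomal protein mRNAs are short, abundant and stable, and in human cells most of them start with a C followed by a run of pyrimidines, the terminal oligopyrimidine (TOP) tract, through which growth signals acting on mTOR and LARP1 set their translation together. Each ribosome needs its proteins in fixed proportion. Some ribosomal proteins also act outside the ribosome, as RPL5 and RPL11 do in holding back MDM2, and RPL13A and RPS3 have been tied to the interferon gamma and NF-kB responses.

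RefSeq promoter entries (GRCh38.p14) matched 67 of the 83 measured members by symbol. The 30 bases around the annotated start, 15 before it and 15 from it on, are shown for members on which the results below turn. They are a P protein, longer and shorter members, and paralogs, of which RPL22L1 and RPS27L stand beside their parents. Capitals mark the run of C and T that holds the start base, and entries without capitals have a purine there.

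RPLP1, chr15:69452803-69452832, plus strand: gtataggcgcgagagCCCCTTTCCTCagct
RPS3, chr11:75399503-75399532, plus strand: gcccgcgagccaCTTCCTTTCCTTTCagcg
RPL3, chr22:39319609-39319638, minus strand: gtaaggccgaccggCCTCTaccggcgggat
RPL39, chrX:119791616-119791645, minus strand: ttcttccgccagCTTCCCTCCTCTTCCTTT
RPL36AL, chr14:49620612-49620641, minus strand: ctgTTTCTTCCCTTTCCTgttaggcgagag
RPL22, chr1:6199581-6199610, minus strand: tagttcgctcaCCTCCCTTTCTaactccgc
RPL22L1, chr3:170870181-170870210, minus strand: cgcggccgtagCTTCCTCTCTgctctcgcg
RPS27, chr1:153990747-153990776, plus strand: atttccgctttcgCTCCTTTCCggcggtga
RPS27L, chr15:63157463-63157492, minus strand: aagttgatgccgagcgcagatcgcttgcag
RPL7L1, chr6:42879601-42879630, plus strand: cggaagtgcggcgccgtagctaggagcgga

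A pyrimidine run of 8 bases or more held an annotated start in 47 of the 67 members (70.1%), against 5.94% of 27305 genes in the same table, and the start base was C in 76.1% of members against 18.0%. The run was 14 bases in RPS3, 22 in RPL39 (18 of them in the window shown), 15 in RPL36AL, 5 in RPL3 and 0 in RPS27L and RPL7L1. Motifs were then searched on both strands from 250 bases before to 50 after the start. The NF-kB motif GGGANTTCC was found in 0 of 67 members (2.23% of genes). The ETS motif CCGGAAG was found in 24 of 67 (35.8% against 12.2%), and the MYC E-box CACGTG in 5 of 67 (7.46% against 8.77%). A match is a description of the letters, and a missing match says only that these letters are not in this window.

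The summed level of the members differed little between populations. It is given as CPM, UMIs per 1000000 gene UMIs of the population, and members made up 13.4% of all UMIs in the populations. HTO3+HTO7 had the highest level, 146419 CPM (145776 to 147064), the median population had 131476 CPM, and HTO4+HTO8 had the lowest, 118391 CPM (117838 to 118946). The ratio of highest to lowest was 1.24 (1.23 to 1.24), and that of the second highest (HTO2+HTO6, 142438 CPM) to the second lowest (HTO2+HTO8, 121043 CPM) was 1.18. In descending order HTO3+HTO7 and HTO2+HTO6 were followed by HTO3+HTO5, HTO3+HTO9, HTO2+HTO5 and HTO2+HTO7 between 139367 and 137745 CPM, by HTO2+HTO9, HTO4+HTO7, HTO4+HTO6 and HTO4+HTO9 between 131476 and 129223 CPM, and by HTO3+HTO6 (121926 CPM), HTO2+HTO8 and HTO4+HTO8. The intervals overlapped from HTO3+HTO5 to HTO3+HTO9 to HTO2+HTO5, from HTO2+HTO9 through HTO4+HTO9, and between HTO3+HTO6 and HTO2+HTO8. Overlapping intervals do not show that levels are equal, and whether these neighbours differ beyond counting error was not tested.

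**Figure D1:**
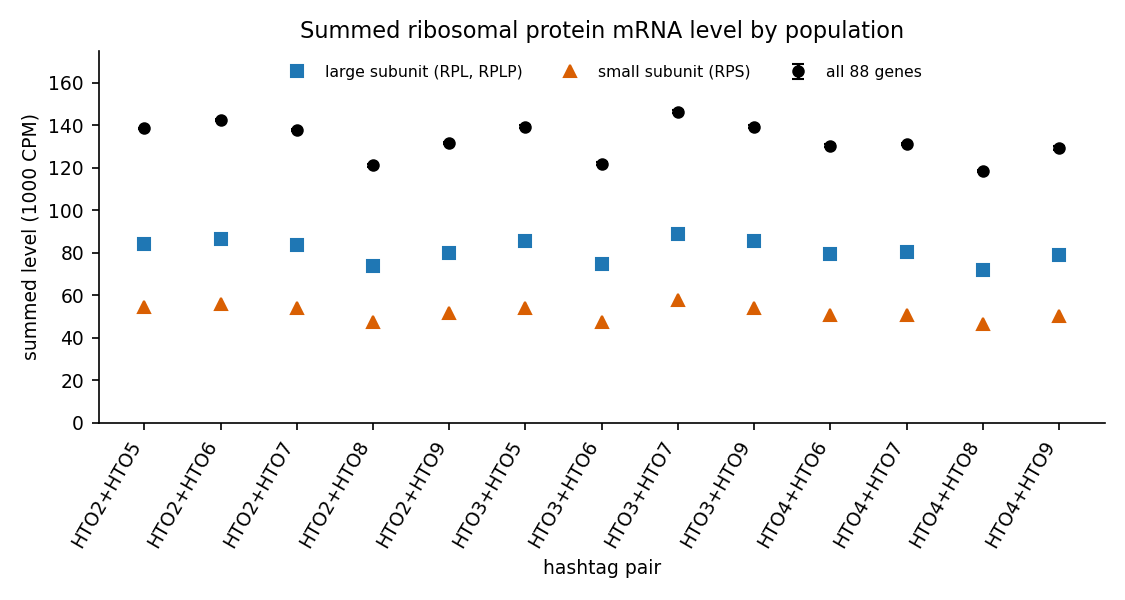
Summed level of the 88 ribosomal protein genes (black circles) and of the large (blue squares) and small (orange triangles) subunit genes in each of the 13 populations, in 1000 CPM on a linear axis from 0. Bars are exact 95% Poisson intervals and are mostly smaller than the points. The sums lie between 118391 and 146419 CPM, and both subunits follow the same order closely.

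Cytokine-response genes in the same populations spanned ranges of another size. The 10 IFNg-response genes (CXCL10, IDO1, GBP1 and others) summed to 360 CPM in HTO3+HTO5 and to 21052 CPM in HTO2+HTO8, 10 MHC class II genes to 133 CPM in HTO3+HTO7 and 5245 CPM in HTO4+HTO9, and 10 TNFa-response genes to 333 CPM in HTO3+HTO7 and 7023 CPM in HTO2+HTO6. HTO2+HTO6 had the second highest level of ribosomal protein genes with the highest of TNFa-response genes, and HTO2+HTO8, with the highest IFNg-response level, had the second lowest. HTO2+HTO9, with 18063 CPM of IFNg-response genes, stood at the median ribosomal protein level of 131476 CPM, and HTO4+HTO9, with 7110 CPM of them, at 129223 CPM. A level per 1000000 UMIs falls when other genes rise. Without the 30 response genes in the denominator the ratio of highest to lowest was 1.22, between the same populations. Scaling by the median ratio over genes, which moved the median gene by -0.16 (HTO2+HTO8) to 0.08 (HTO4+HTO7) on the log2 scale against the total, put HTO2+HTO8 at 1.00 of the median population in place of 0.921. The lowest population was then HTO3+HTO6 at 0.854, the highest HTO2+HTO6 at 1.12, and HTO4+HTO8 stood at 0.883. So HTO3+HTO6 and HTO4+HTO8 were low on both scales, and the low position of HTO2+HTO8 depended on the scale. The top position of HTO3+HTO7 did so too, at 1.11 of the median population by CPM and 1.04 by the scaling. HTO4+HTO6 and HTO4+HTO7 went from 0.992 and 0.997 to 0.917 each, and HTO3+HTO9 from 1.06 to 0.985.

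The large and small subunit kept a nearly fixed proportion. UMIs of the RPL members over those of the RPS members were 1.54 (1.53 to 1.55) in HTO2+HTO9, 1.56 in the median population and 1.58 (1.57 to 1.60) in HTO3+HTO5. The highest was 1.03 times the lowest, and the lowest and highest intervals did not overlap. The summed large subunit ran from 72094 to 88803 CPM and the small from 46297 to 57617 CPM, both lowest in HTO4+HTO8 and highest in HTO3+HTO7.

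Single members also differed little between populations. The level of a member, in 3' UMI counts where a molecule counts once whatever its length, ran from 39.02 CPM for RPL39L to 5450 CPM for RPL13 over all population cells. Only RPL39L differed 2-fold or more between its highest and lowest population, 1 of 83 members, against 69.3% of the 13596 genes with 30 UMIs or more. The median ratio was 1.29 for members and 2.67 for all these genes. At 1.5-fold, 11 of 83 members passed against 91.0% of genes. Counting noise widens the ratio of low genes, and members are high. Among the 8015 genes with 300 UMIs or more, 49.1% passed 2-fold and 84.7% passed 1.5-fold, with the same 1 and 11 members. Among genes at 100 CPM or more, 0 of 81 members passed 2-fold against 20.3%, with medians of 1.29 and 1.53, and 9 of 81 passed 1.5-fold against 54.4%. In the 400 cells with at least 1000 genes and no more than 10% mitochondrial UMIs, 19 members passed 2-fold, against 93.3% of genes there.

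**Figure D2:**
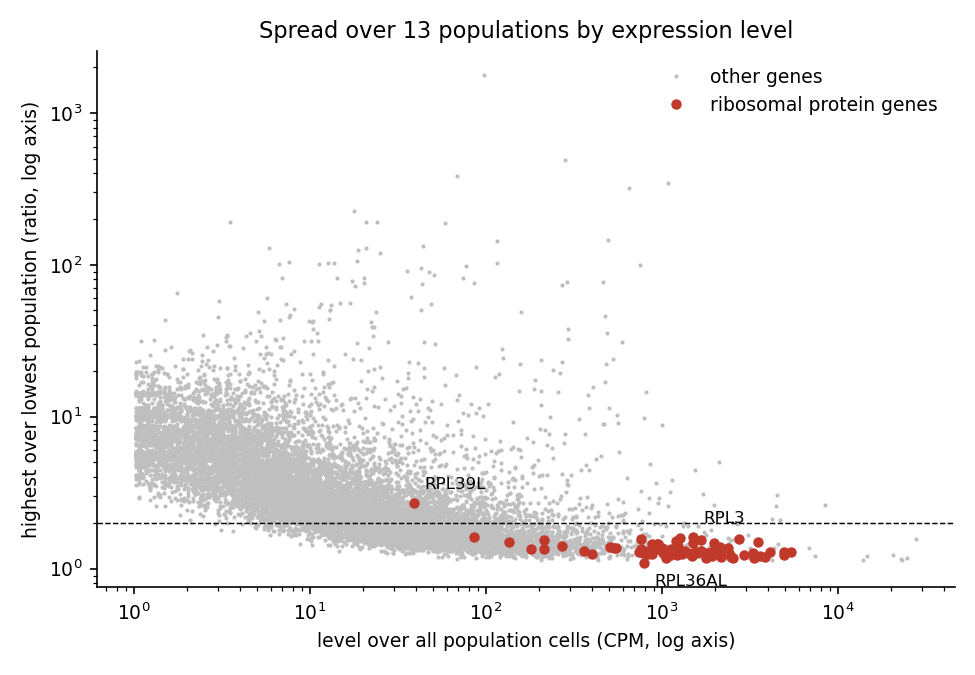
Ratio of the highest to the lowest population (vertical, log axis) against the level over all population cells (CPM, horizontal, log axis) for 13596 genes with 30 UMIs or more; red points are the 83 ribosomal protein genes measured, grey points all others, and the dashed line is 2-fold. Members lie along the lower edge of the cloud, with RPL39L at 2.69, RPL3 at 1.61 and RPL36AL at 1.09.

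The 5 members with most UMIs were RPL13, RPL8, RPLP1, RPS18 and RPS14, which held 17.4% of member UMIs. RPL13, a large subunit protein, was lowest in HTO2+HTO8 (4690 CPM) and highest in HTO3+HTO7 (6053 CPM), with a median of 5527 and a ratio of 1.29 (1.25 to 1.33). RPS14, of the small subunit platform, ran from 3459 CPM in HTO4+HTO8 to 4144 CPM in HTO2+HTO6 (median 3871), a ratio of 1.20 (1.16 to 1.24). Their lowest populations were those with the 2 lowest summed levels.

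Among the stalk proteins, which recruit the translation factors, RPLP1 ran from 4449 to 5444 CPM (median 4897), RPLP2 from 1264 to 1595 CPM (median 1381) and their anchor RPLP0 from 1366 to 1772 CPM (median 1678). All 3 were lowest in HTO4+HTO8. RPL5 and RPL11 join 5S rRNA in a particle that can bind MDM2. RPL5 ran from 927 CPM in HTO4+HTO8 to 1472 CPM in HTO3+HTO5 (median 1221), a ratio of 1.59 (1.48 to 1.70). RPL11 ran from 1959 CPM in HTO4+HTO8 to 2348 CPM in HTO3+HTO7 (median 2153), a ratio of 1.20 (1.14 to 1.26). The partners were thus lowest in the same population, and their intervals of the ratio did not overlap.

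RPS3 and RPS2 sit at the mRNA entry of the small subunit. RPS3, also described as a partner of NF-kB, ran from 2126 CPM in HTO4+HTO8 to 3345 CPM in HTO3+HTO7 (median 2741), a ratio of 1.57 (1.503 to 1.647), and RPS2 from 2807 to 4219 CPM (median 3563) in the same populations. In HTO2+HTO6 and HTO2+HTO7, the 2 populations with the highest TNFa-response levels, RPS3 had 2849 and 2921 CPM. RPS6, the small subunit protein phosphorylated by S6 kinases, ran from 674 CPM in HTO4+HTO8 to 977 CPM in HTO3+HTO9 (median 890), a ratio of 1.45 (1.33 to 1.58). RPSA, which also serves as a laminin receptor, ran from 773 to 1063 CPM, RPS4X from 1329 to 1705 CPM and RPS29 from 323 to 423 CPM. In the 400 cells of the stricter filter, where HTO2+HTO8 kept 12 cells, the ratio of RPS3 was 2.56 (2.21 to 2.99) and that of RPSA 2.24 (1.76 to 2.87), both between HTO3+HTO5 and HTO2+HTO8.

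RPL13A, the subunit described to leave the ribosome in IFNg-treated monocytes, ran from 1405 CPM in HTO4+HTO8 to 1846 CPM in HTO3+HTO7 (median 1693), a ratio of 1.31 (1.24 to 1.39). The 2 populations with the highest IFNg-response sums differed in it, with 1435 CPM in HTO2+HTO8 and 1727 CPM in HTO2+HTO9. RPL3, at the peptidyl transferase centre, ran from 1066 CPM in HTO4+HTO8 to 1714 CPM in HTO2+HTO6 (median 1505), a ratio of 1.61 (1.52 to 1.70), and RPL4, which lines the exit tunnel, from 548 to 853 CPM (median 769), a ratio of 1.56 (1.42 to 1.70). RPL7 had a ratio of 1.54 and RPL10, an assembly checkpoint protein, 1.21. RPL10A ran from 1026 to 1321 CPM, RPL38 from 358 to 447 CPM and RPL41 from 3031 to 3604 CPM.

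The smallest spread was that of RPL36AL, an autosomal copy of RPL36A, with its lowest level in HTO2+HTO8 (764 CPM), a median of 808 CPM and its highest level in HTO4+HTO6 (831 CPM), a ratio of 1.09 (1.01 to 1.17). Since these populations were picked as the extremes, the interval does not show a spread beyond counting noise. RPL28 (1.17), RPS9 (1.17), RPL34 (1.17) and RPS12 (1.18) came next. Of the 83 members, 46 stayed under 1.3. On the CPM scale 40 members had their lowest level in HTO4+HTO8, 21 in HTO2+HTO8 and 13 in HTO3+HTO6, and 37 had their highest in HTO3+HTO7 and 23 in HTO2+HTO6.

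Dividing each member by the summed level takes out what all members share, and this measure does not depend on the scale chosen. The SD over populations of the log2 share was 0.07 for the median member. RPL39L (0.39), RPS27L (0.23), RPL7L1 (0.19), RPS26 (0.16) and RPL26L1 (0.14) had the largest values, of which 4 are paralogs and all had 7908 UMIs or fewer, so counting noise is part of these SDs. In HTO4+HTO8 and HTO4+HTO9 several members with long coding sequences took a smaller share, and several with short ones a larger share. In HTO4+HTO8 the log2 share against the median population was -0.31 for RPL4, -0.31 for RPL3, -0.27 for RPL7 and -0.26 for RPL5, beside 0.34 for RPL39, 0.21 for RPL37 and 0.20 for RPS27. In HTO4+HTO9 it was -0.37 for RPL4 and -0.34 for RPL3, beside 0.25 for RPL39 and 0.28 for RPS27.

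**Figure D3:**
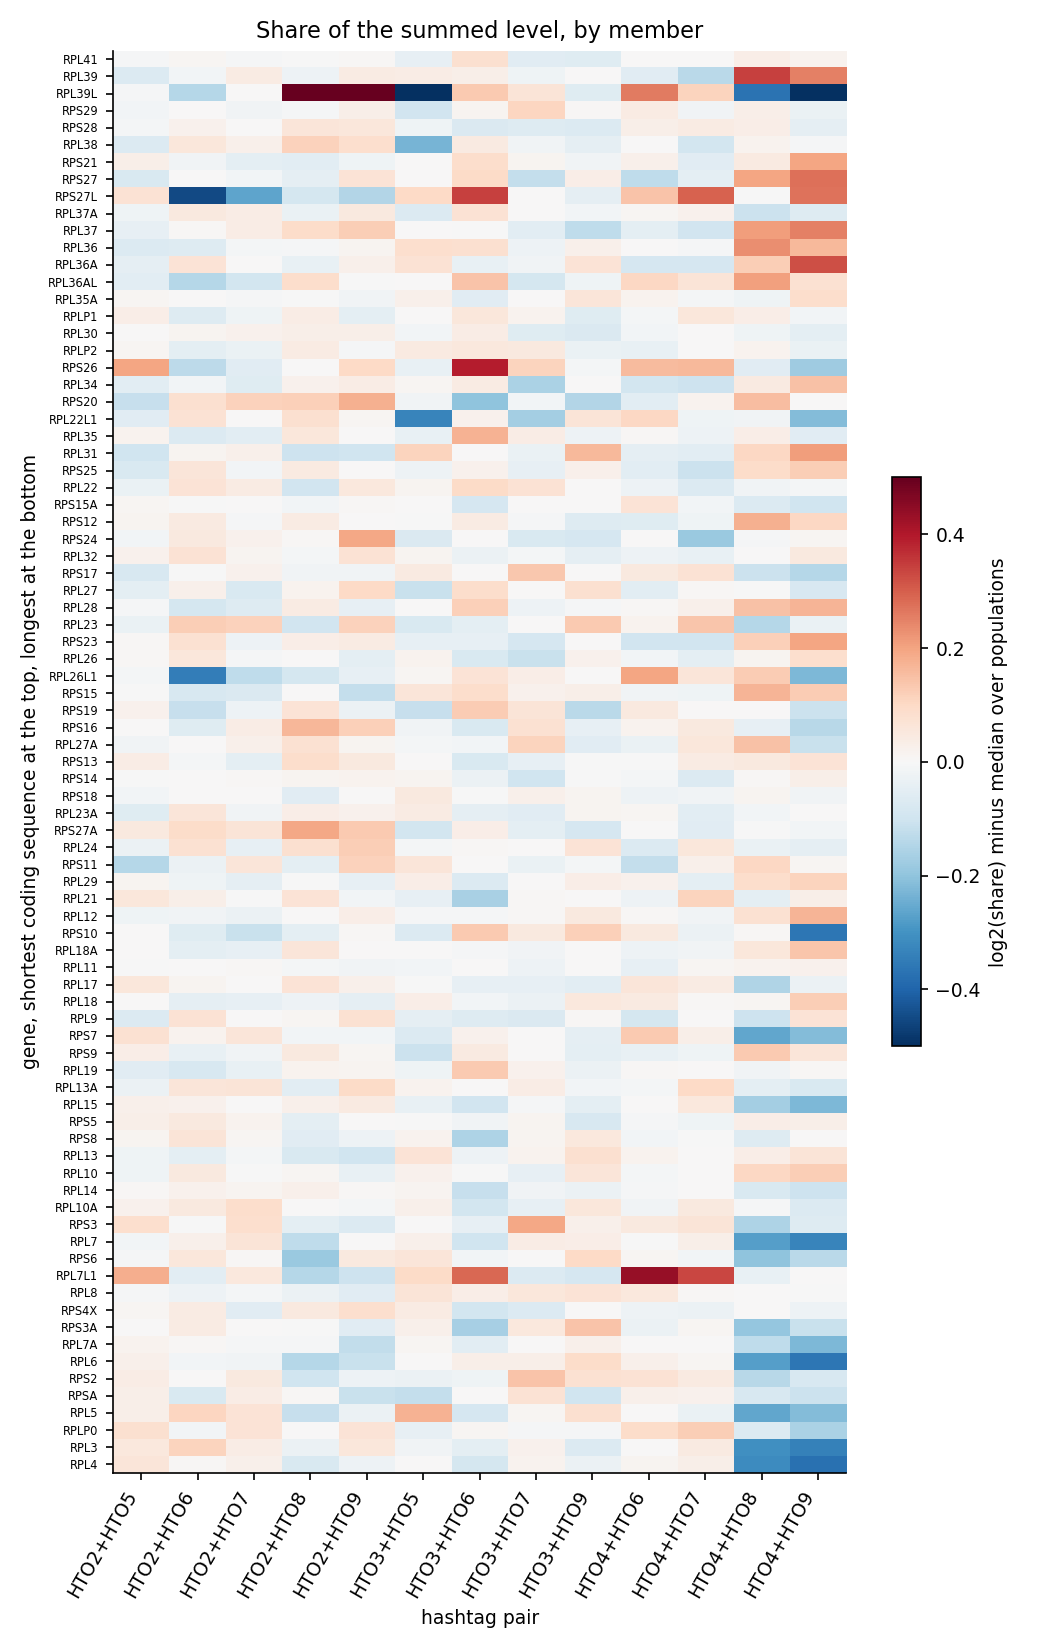
Share of the summed level held by each of the 83 measured members (rows, ordered by coding length with the shortest at the top) in each population (columns), as log2 of the share minus its median over populations; colours stop at -0.5 and 0.5, which cuts off values of RPL39L. The bottom rows, RPL3 and RPL4, are dark blue in HTO4+HTO8 and HTO4+HTO9, where RPL39, RPL37 and RPS27 near the top are red; not every long gene is blue there, as RPL10 and RPL13 show.

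The relation to length was examined further with a split at the median coding length of 453 bases in GENCODE 29, chosen after the values were seen. The 40 longer members (456 to 1281 bases) and the 43 shorter ones (75 to 453 bases) had a ratio of summed UMIs of 1.18 (1.16 to 1.19) in HTO4+HTO8, 1.20 (1.18 to 1.21) in HTO4+HTO9, 1.22 (1.21 to 1.23) in HTO3+HTO6, 1.23 (1.22 to 1.24) in HTO2+HTO8 and 1.24 (1.23 to 1.25) in HTO2+HTO9. In the other 8 populations it lay between 1.276 (HTO2+HTO5) and 1.303 (HTO3+HTO9). The highest was 1.11 times the lowest. The 5 populations with the lowest ratios were those with the 5 highest sums of MHC class II genes, 891 CPM in HTO3+HTO6, 1420 in HTO2+HTO9, 2009 in HTO2+HTO8, 4878 in HTO4+HTO8 and 5245 in HTO4+HTO9, while the other 8 had 133 to 427 CPM. The IFNg-response genes gave this order except for HTO3+HTO6. It had 564 CPM of them, less than HTO2+HTO6 (1752), HTO2+HTO7 (1594), HTO2+HTO5 (796) and HTO4+HTO7 (586), whose ratios were 1.276 or more. HTO4+HTO8 (5815), HTO4+HTO9 (7110), HTO2+HTO9 (18063) and HTO2+HTO8 (21052) had the highest sums of them. These also had the lowest sums of mitosis genes, 232 to 513 CPM, against 881 CPM in HTO3+HTO6. The lowest summed ribosomal protein levels were in HTO4+HTO8, HTO2+HTO8, HTO3+HTO6 and HTO4+HTO9. Which of these sums goes with the ratio was not tested. HTO2+HTO6, with the highest TNFa-response sum and 427 CPM of MHC class II genes, had 1.28. These populations share 1 library and were not mapped to treatments, so the coincidence of the orders is a description. The coincidence was not complete under the stricter cell filter, as given below.

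**Figure D4:**
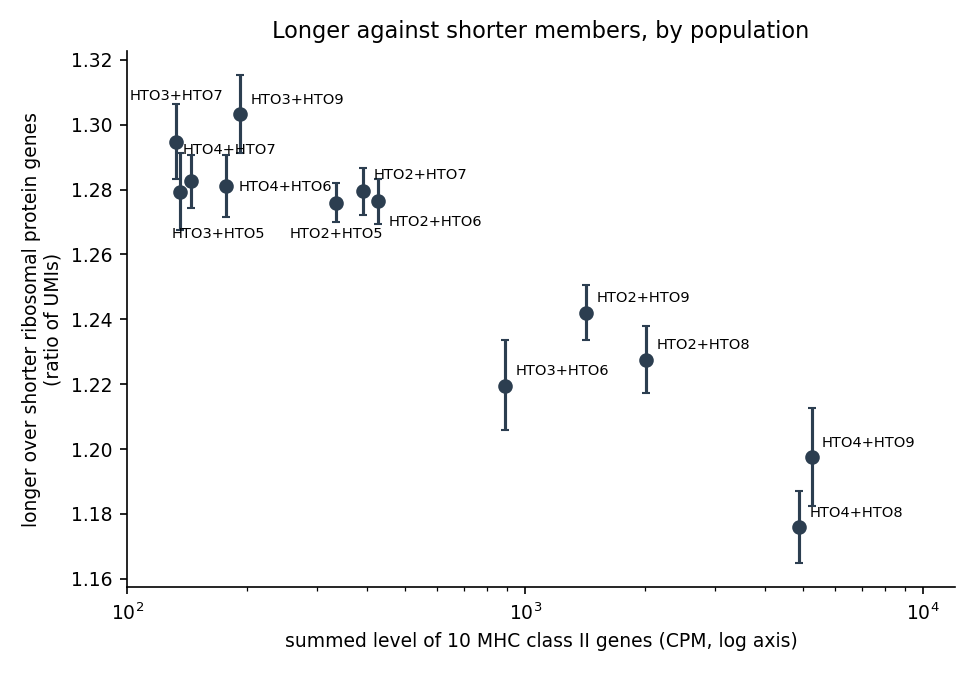
Ratio of the summed UMIs of the 40 longer to the 43 shorter ribosomal protein genes (vertical, linear axis not starting at 0) against the summed level of 10 MHC class II genes (CPM, log axis) in the 13 populations. Bars are exact 95% intervals. The 5 populations at 891 CPM or more of MHC class II genes lie between 1.18 and 1.24, and the other 8 between 1.276 and 1.303.

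Over the 83 members, Spearman's rho between coding length and the log2 share deviation was -0.51 in HTO4+HTO8, -0.45 in HTO3+HTO6, -0.40 in HTO4+HTO9, -0.30 in HTO2+HTO9 and -0.30 in HTO2+HTO8, and between 0.10 and 0.41 in the other 8. Over 1401 other genes at 100 CPM or more the same rho was 0.20 in HTO4+HTO8 and in HTO4+HTO9, -0.03 in HTO3+HTO6 and 0.01 in HTO2+HTO8 and in HTO2+HTO9, and it lay between -0.18 (HTO2+HTO5) and 0.07 (HTO2+HTO7) in the other 8. Depth moved with the ratio in part. HTO4+HTO9, HTO3+HTO6 and HTO4+HTO8 had the 3 lowest median depths, 6434.5, 7194 and 7228 UMIs per cell, but HTO2+HTO8 and HTO2+HTO9 had 9147 and 9431, above the median population at 8768. With every cell thinned to 3000 UMIs, the ratio was 1.15 in HTO4+HTO8, 1.19 in HTO4+HTO9 and 1.21 in HTO3+HTO6. It was 1.22 in HTO2+HTO8 and in HTO2+HTO9, and 1.26 or more in the other 8. In the 400 cells of the stricter filter this split did not hold in full. There HTO2+HTO7, from the other 8, had 1.24, below HTO2+HTO9 at 1.26. The lowest ratios there were 1.13 in HTO4+HTO8, 1.18 in HTO3+HTO6, 1.22 in HTO4+HTO9 and 1.22 in HTO2+HTO8.

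Within populations the same ratio was lower in cells with more response UMIs. In thinned cells, those above their population's median count of the IFNg-response and MHC class II genes had a lower ratio of longer to shorter members in 13 of 13 populations, by a factor of 0.966 in the median population (0.923 to 0.983). The exact intervals were apart in 4 of 13. In HTO4+HTO8 it was 1.10 against 1.19, and in HTO2+HTO8 1.20 against 1.24. A split by TNFa-response genes gave a lower ratio in 8 of 13, and one by mitosis genes a higher ratio in 13 of 13. The cells high in IFNg-response and MHC class II genes were also shallower before thinning in 11 of 13 populations (median factor 0.941) and those high in mitosis genes deeper in 13 of 13 (median factor 1.44). Cells above their population's median depth had the higher ratio in 13 of 13 populations, by factors of 1.02 to 1.08. The part of depth in these differences was not tested. The summed epithelial markers were also lowest in 4 of the 5 populations with low ratios, at 3689 CPM in HTO2+HTO8, 3828 in HTO2+HTO9, 4341 in HTO4+HTO8 and 4468 in HTO4+HTO9, against 4856 to 7506 CPM in the other 9 populations, HTO3+HTO6 (5547 CPM) included, and their part was not tested.

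Several members have paralogs, of which 6 were measured. RPL39L, an autosomal copy of the tunnel protein RPL39 known from testis, ran from 19.6 CPM (10.96 to 32.30) in HTO4+HTO9 to 52.8 CPM (44.3 to 62.4) in HTO2+HTO9, with a median of 38.5, a ratio of 2.69 (1.58 to 4.95). The value rests on few counts: it was 15.7 (2.59 to 642, HTO2+HTO8 over HTO4+HTO9 with 1 UMI) after thinning to 3000 UMIs per cell and 6.21 (1.60 to 53.3, HTO2+HTO6 over HTO4+HTO9 with 2 UMIs) in the 400 cells of the stricter filter. The ratio of the second highest to the second lowest population was 1.90. RPL39 had its highest level, 853 CPM, in HTO4+HTO9, where RPL39L was lowest, and its lowest, 659 CPM, in HTO2+HTO8, where RPL39L had its second highest level, 48.6 CPM. RPS27L, a p53-induced copy of RPS27, ran from 169 CPM in HTO2+HTO6 to 261 CPM in HTO4+HTO7 (median 234), a ratio of 1.54 (1.39 to 1.72). It was also low in HTO2+HTO8, HTO2+HTO7, HTO4+HTO8 and HTO2+HTO9, at 185 to 193 CPM, and at 219 CPM or more in the other 8. RPS27 had its lowest level in HTO2+HTO8 (901 CPM) and its highest in HTO4+HTO9 (1204 CPM), around a median of 1044.

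RPL22L1, the copy of RPL22, ran from 178 CPM in HTO3+HTO5 to 241 CPM in HTO2+HTO6 (median 210), a ratio of 1.35 (1.17 to 1.57), and RPL22 was lowest in HTO2+HTO8 (463 CPM) and highest in HTO3+HTO7 (630 CPM). RPL26L1 ran from 153 to 207 CPM beside 1658 to 2122 CPM of RPL26, and RPL7L1, a copy of RPL7 with a role in ribosome assembly, from 65.4 to 105 CPM beside 1235 to 1898 CPM of RPL7. RPL36A was lowest in HTO2+HTO8 (471 CPM) and highest in HTO4+HTO9 (645 CPM), a ratio of 1.37 (1.22 to 1.53). In the 400 cells of the stricter filter the ratio was 2.35 (1.33 to 4.42) for RPL26L1 and 3.02 (1.31 to 8.57) for RPL7L1. Both were lowest in HTO2+HTO8, which kept 12 cells. For RPL36A it was 2.09 (1.42 to 3.16), with the lowest level in HTO3+HTO6, which kept 15 cells. RPL10L and RPL3L, known from testis and from muscle, had 7 UMIs and 1 UMI in all population cells, and the read-through gene RPS10-NUDT3 had 1. Parents and copies resemble each other and GENCODE 29 names 1144 pseudogenes after 77 members, none of them a row of the deposited table, so reads may be lost or shared and single levels are uncertain.

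**Figure D5:**
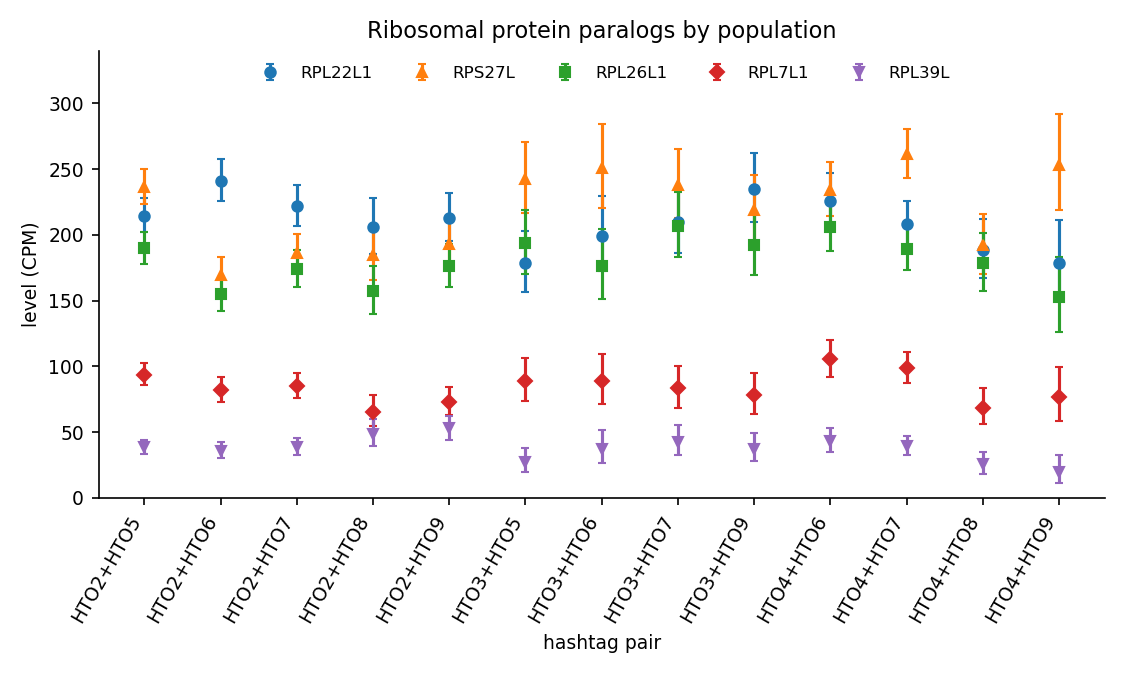
Levels (CPM, linear axis from 0) of 5 ribosomal protein paralogs in the 13 populations, with exact 95% Poisson intervals as bars. RPS27L is lowest in HTO2+HTO6 at 169 CPM, and RPL39L runs from 19.6 CPM in HTO4+HTO9 to 52.8 CPM in HTO2+HTO9.

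Between single cells the members varied far more than between populations. The share of a cell's UMIs from members was 12.98% in the median cell, with 5% of cells under 8.04% and 5% over 19.8%. The population medians ran from 11.4% in HTO4+HTO8 to 14.0% in HTO3+HTO7, while within populations the 5th percentile of cells lay at 6.25% to 9.05% and the 95th at 16.9% to 21.6%. In 2877 cells thinned to 3000 UMIs (117 shallower cells left out), the SD over cells was 3.67 percentage points, against 0.622 from counting alone. Of the variance of this share over cells, 5.57% lay between populations, 5.96% after thinning, 15.6% in the 400 cells of the stricter filter and 2.00% with no cell filter. Within populations the share correlated with the log2 of the UMI count at r = 0.06 and with the mitochondrial percentage at r = -0.23, or -0.06 when mitochondrial UMIs were left out of the denominator (2994 cells, 1 library). In thinned cells the median share was 12.1% in the 255 cells with 5 or more UMIs of 10 mitosis genes and 13.1% in the 2233 cells with 0, over all populations. Split within populations, cells above the median count of mitosis genes had the lower share in 8 of 13, with differences from -2.23 to 1.70 percentage points.

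The members rose and fell together from cell to cell. In thinned cells the mean pairwise correlation of 83 members was 0.152, with 93.4% of pairs above 0, and 0.145 when centred on populations. Without thinning, where depth adds to it, it was 0.281. No value for other genes of like level stands beside these, so whether they are particular to the members was not tested. RPL8 (mean correlation with the other members 0.264), RPL13 (0.259), RPS18 (0.256) and RPS2 (0.249) had the highest values. RPL26L1 (-0.0157), RPS27L (-0.0119), RPL39L (-0.0107), RPL7L1 (0.00588), RPL22L1 (0.0267) and RPL36AL (0.0283), all of them paralogs, had the lowest. Of these 6, 5 had 6249 UMIs or fewer and RPL36AL had 23043. RPS10, with 3941 UMIs, had 0.0456, RPS26, with 7908, had 0.0413, and RPL4, with 22269, had 0.111. The part of low counts in these values was not tested.

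Genes that work with the members followed them in part. The 16 elongation factors and other TOP mRNAs ran from 12561 CPM in HTO4+HTO8 to 16495 CPM in HTO2+HTO6. Past 2-fold were 0 of 16 against 69.3% of genes with 30 UMIs or more, with a median ratio of 1.42. At 100 CPM or more 0 of 15 were against 20.3%, with a median of 1.42 beside 1.53 for all such genes. Among the 16, EEF1A1, the elongation factor that delivers tRNA, was lowest in HTO4+HTO8 (1864 CPM) and highest in HTO2+HTO6 (2863 CPM), a ratio of 1.54. Ribosome biogenesis genes had another order: they were highest in HTO2+HTO9 (2984 CPM) and lowest in HTO3+HTO5 (2380 CPM), and 10 of 26 passed 2-fold against 69.3% of genes with 30 UMIs or more, and 0 of 6 at 100 CPM or more against 20.3%. NCL, the nucleolar protein nucleolin, ran from 786 CPM in HTO3+HTO5 to 1287 CPM in HTO2+HTO9. The 81 mitochondrial ribosomal protein genes, which build the separate ribosome of mitochondria, ran from 6992 CPM in HTO4+HTO9 to 9049 CPM in HTO3+HTO7. Of these, 17 of 80 passed 2-fold against the same 69.3%, with a median ratio of 1.65. At 100 CPM or more 3 of 36 did against 20.3%. Their median was 1.52, beside 1.53 for all such genes and 1.29 for the cytosolic members. The cytosolic members are higher in level, and counting noise widens the ratio of low genes.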

How the data were processed

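Per the labels, 13 tumours were pooled in 1 library with a hashtag library. The authors deposited whole-number UMI counts of genes and hashtags per barcode, not normalised. Per the file headers the matrix comes from Cell Ranger 5.0.1. Cell Ranger 2.1.1 and GRCh38 stand in the submitters' processing notes, and no annotation version is given in these sources. Members and lists were chosen with earlier results of these data known. Members were described without tests, since pairs are not mapped to tumours. Counts were summed per population, scaled to 1000000 gene UMIs, and given exact 95% Poisson or conditional binomial intervals; a population at 0 was set to 3 counts in ratios. Thinning drew 3000 UMIs per cell. Correlations used log1p of counts per cell scaled to a fixed total. No doublet caller was run; 617 passing barcodes without a clear pair were left out. Coding lengths and pseudogene names came from GENCODE 29, in which all 88 identifiers matched. Named members were a fixed set, the 5 with most UMIs, the 8 with the largest and 5 with the smallest ratio and the 5 with the largest share SD; those on the Y chromosome were counted only. RPS2, RPS10 and RPL37 lie outside this rule and were picked after their values were seen. Some planned results are not reported here. Columns of other samples numbered 0. Ratios and intervals were tested on simulated data, and thinning was checked for its totals on cells of the data. Scripts used scipy 1.17.1 and numpy 2.4.6 under Python 3.11.15, with matplotlib 3.10.9 for plots and pandas 2.3.3 for tables.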

Additional observations from a re-analysis of the deposited data

Results flagged for a closer look

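Counts were present in 2 hashtags outside the pair rule: HTO10 had 8418 counts over all barcodes, with a maximum of 70 in a barcode, and HTO1 had 96, with a maximum of 4. Both exceed 3 counts, the upper limit for a feature with none, and both have a median of 0 per barcode.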

How the results depend on the processing

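No paired analysis was possible because pairs are not mapped to tumours, so replicate tumours could not be identified; for the same reason no replicate was left out. The denominators without 30 response genes, the median-ratio scaling, the epithelial limit and the longer-to-shorter ratio with its settings were chosen after seeing the data. The ratio of the highest to the lowest summed level was 1.24 (HTO3+HTO7 over HTO4+HTO8). In 400 cells with at least 1000 genes and no more than 10% mitochondrial UMIs it was 1.59 (HTO3+HTO5 over HTO2+HTO8). It was 1.28 (HTO3+HTO7 over HTO3+HTO6) with up to 50% mitochondrial UMIs and 1.32 (HTO2+HTO6 over HTO3+HTO6) with no cell filter. With no filter HTO3+HTO7, at 113984 CPM, was below HTO2+HTO6 (118613), HTO2+HTO7 (118468) and HTO4+HTO7 (118137). Between HTO3+HTO7 and HTO4+HTO8 it was 1.20 with the second hashtag 8 times the third and 1.26 with 10 counts and 2 times. Between the same populations it was 1.25 as a mean over cells and 1.22 without the response genes. By median-ratio scaling it was 1.31 (HTO2+HTO6 over HTO3+HTO6). Thinning and leaving out mitochondrial UMIs, the top 5 members or cells with under 3 epithelial markers moved the ratio by less than its interval. After thinning the lowest population was HTO2+HTO8. In the same order of cell and hashtag settings, the median member ratio (1.29) was 1.76, 1.35, 1.38, 1.29 and 1.301, and 1.36 thinned; the median SD of log2 shares (0.07) was 0.147, 0.0621, 0.0614, 0.0744 and 0.0699; and the percentage of variance between populations (5.57) was 15.6, 3.79, 2.00, 4.86 and 5.77, with 5.96 thinned and 5.85 without mitochondrial UMIs. The count of members past 2-fold (1) was 19 in the 400 cells and 0 with no cell filter, at 100 CPM or more, and for the second highest over the second lowest. The range of the large-to-small subunit ratio (1.03) was 1.07 in the 400 cells. That of the longer-to-shorter ratio (1.11) was 1.20 there, 1.10 with up to 50% mitochondrial UMIs or no filter, 1.12 thinned and 1.12 without the top 5. The mean pairwise correlation (0.152) was 0.166 by Spearman, 0.176 for members in 50% of cells or more, 0.145 centred and 0.281 unthinned. Of 266 values of 38 single genes, 193 stayed within their interval and 73 moved. The cause of these changes was not tested. Depth limits RPL39L most, with 15 UMIs in HTO4+HTO9.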

Other observations

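Barcodes that failed the limit on mitochondrial UMIs held fewer ribosomal protein UMIs, also among the UMIs that were not mitochondrial. In barcodes of the 13 pairs with 500 genes or more, members made up 16.1% of non-mitochondrial UMIs in the 446 barcodes at 10% mitochondrial UMIs or less and 15.6% in the 2548 barcodes over 10% and up to 20%. The share was 14.9% in 1662 barcodes up to 30%, 11.9% in 658 up to 40%, 8.44% in 642 up to 50% and 6.74% in 1115 above 50%. Median depth was 7824 UMIs in the first of these groups and 3618 in the last. The ratio of longer to shorter members was 1.28 in the first and 1.20 in the last.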
